A study of Mus musculus with 12 samples.

Results

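Type I interferon-stimulated genes are the genes that a cell switches on when type I interferon reaches its receptor, and 39 of them were followed here across 12 plates of mouse blood progenitors. The members are listed gene symbols, kept where the plates together held at least 20 UMIs (unique molecular identifiers, 1 per captured transcript) in wells with at least 1000 UMIs. All 39 listed symbols met this, out of 19357 genes with a UMI in those wells. They ranged from 207 UMIs for Zbp1 to 25377 for Ifitm3, which alone gave 22.8% of the members' UMIs.

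The cells were LSK cells, the fraction without lineage markers but with Sca-1 and Kit on its surface, which holds blood stem cells and multipotent progenitors, sorted from the fetal liver at day 18.5 on the C57BL/6J background. WT had 3 plates with both genes normal, Rev1 knockout had 3 plates homozygous for loss of Rev1, Pcna K164R had 2 plates homozygous for that point mutation, and the double mutant had 4 plates homozygous for both. The labels name no treatment and no recombinase for any group. Rev1 is a translesion polymerase, and the mutated lysine of Pcna, the sliding clamp of replication, is the one that is modified with ubiquitin when replication meets damage. The labels do not say whether the plates of a genotype came from separate fetuses, so a p-value here speaks of variation among plates, part of which may be technical. Kit, whose protein is used in the sort, was at 122 to 505 CPM over the plates, and Ly6a, which encodes Sca-1, at 0 (in double mutant replicate 3) to 101 CPM (CPM are UMI counts scaled to a common total per plate, after TMM scaling).

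As background, type I interferons bind the receptor of Ifnar1 and Ifnar2, and the kinases on that receptor phosphorylate transcription factors, among them Stat2. With Irf9 these form the complex ISGF3, which binds the interferon-stimulated response element (ISRE) in target promoters. The targets include sensors of foreign RNA, the ISG15 conjugation system, the IFIT, OAS and MX antiviral proteins, and Usp18, which damps the receptor. Type I interferon is known to push quiescent blood stem cells into division, and stem and progenitor cells are known to express a share of these genes without infection.

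The ISRE is where ISGF3 binds, so 6 promoters with a match ahead of the start are shown, chosen from members that fell (Ifit1, Ifit3, Rsad2 and Trim30d) and from members that did not pass the test (Isg15 and Bst2). Ifi44, the member with the deepest fall, held no match in its window and is not shown. Each line below gives the 160 bases ahead of the RefSeq transcription start on GRCm38.p6, read 5′ to 3′ on the gene's strand, with matches to GAAANNGAAA or its reverse complement in capitals. The windows are chr19:34640729-34640888 (plus strand) for Ifit1, chr19:34583369-34583528 (plus) for Ifit3, chr4:156200819-156200978 (minus) for Isg15, chr12:26456453-26456612 (minus) for Rsad2, chr7:104507850-104508009 (minus) for Trim30d and chr8:71537473-71537632 (minus) for Bst2. The capitals of Isg15 and of Bst2 are runs of overlapping matches, and those of Ifit1 and Ifit3 are separate pairs.
Ifit1: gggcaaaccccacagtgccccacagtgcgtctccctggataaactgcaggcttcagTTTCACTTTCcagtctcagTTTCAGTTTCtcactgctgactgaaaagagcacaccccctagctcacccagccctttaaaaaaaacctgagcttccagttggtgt
Ifit3: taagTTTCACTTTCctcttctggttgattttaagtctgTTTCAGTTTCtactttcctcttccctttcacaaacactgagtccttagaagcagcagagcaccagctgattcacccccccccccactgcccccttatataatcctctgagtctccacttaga
Isg15: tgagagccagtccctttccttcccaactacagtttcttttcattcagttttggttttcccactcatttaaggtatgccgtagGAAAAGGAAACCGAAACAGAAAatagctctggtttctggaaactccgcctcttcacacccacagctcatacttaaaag
Rsad2: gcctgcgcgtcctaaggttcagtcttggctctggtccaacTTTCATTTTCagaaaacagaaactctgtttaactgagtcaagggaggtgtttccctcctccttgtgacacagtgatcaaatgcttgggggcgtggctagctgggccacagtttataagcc
Trim30d: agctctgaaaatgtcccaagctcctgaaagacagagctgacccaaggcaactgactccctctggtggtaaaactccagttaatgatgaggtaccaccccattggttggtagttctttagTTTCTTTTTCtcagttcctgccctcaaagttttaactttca
Bst2: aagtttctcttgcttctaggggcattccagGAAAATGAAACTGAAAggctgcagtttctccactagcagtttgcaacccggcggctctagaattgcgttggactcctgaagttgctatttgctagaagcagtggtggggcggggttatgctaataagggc

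Over the whole RefSeq window, 250 bases before to 50 after the start, 29 members had an entry and 16 of them held the ISRE letters on either strand, or 55.2%. Among all 27025 genes with an entry the share was 3.99%. The second interferon element searched, GAS (TTCNNNGAA, which is its own reverse complement), was in 6 of the 29, or 20.7%, against 9.55% of all genes. Oas2, Ifi27l2a, Mx1, Mx2, Dhx58, Parp14, Usp18, Zbp1, Parp9 and Rtp4 had no entry. The matches are letter matches in a window and were not tested as binding sites.

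**Figure D1:**
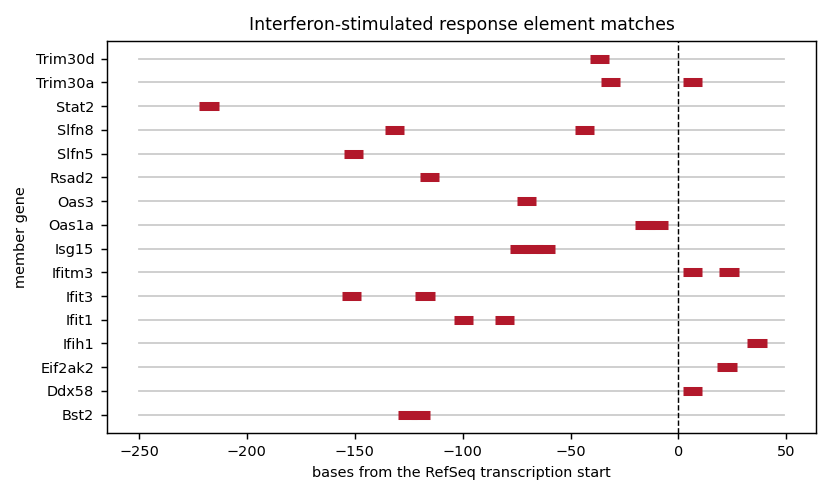
Position of each ISRE letter match (red bars) in bases from the RefSeq transcription start (dashed line at 0) for the 16 members with a match. Grey lines span the searched window of 250 bases before to 50 after the start. Isg15, Bst2 and Oas1a hold overlapping matches that merge into 1 bar, and Ddx58, Eif2ak2, Ifih1 and Ifitm3 hold theirs after the start.

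Before the results, 2 plates need naming. Double mutant replicate 3 had 82 kept wells and 212938 UMIs, against up to 11617420 in double mutant replicate 1, and a TMM scaling factor of 0.549. In it 168 genes stood over 3-fold above every other plate, against 0 to 6 such genes in each other plate. A gene at 0 there could still be present at 25.7 CPM, the level of 3 UMIs. Rev1 itself was at 10.5, 18.4 and 11.98 CPM in WT and at 5.62, 1.26 and 3.70 CPM in Rev1 knockout. In the double mutant it was at 1.33, 2.496 and 8.68 CPM in replicates 1 to 3, the last from 1 UMI, but at 13.4 CPM (33 UMIs) in the library labelled double mutant replicate 4, within the WT range. The counted 3' ends may lie outside the deleted stretch, so this check has limits. Results against WT whose call changed without either plate are given without it too, by gene or as a count. The plates came from 3 sort sessions and 5 flow cells. No flow cell held both WT and double mutant plates.

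The members were lower in the double mutant than in WT. Of 39 members tested, 19 fell and 0 rose past an adjusted p of 0.05 (edgeR quasi-likelihood test, Benjamini-Hochberg over 12221 genes), against a background of 2.41% of all genes called lower and 1.8% called higher. All 39 fold changes were below zero, with a median of -1.48 on the log2 scale against -0.04 over all genes tested, and 32 had an unadjusted p under 0.05, as had 2778 of all 12221 genes. The deepest falls were in Ifi44, Ifit3, Rsad2, Mx2 and Ifit1, between -3.51 and -3.07. In 23 members every double mutant plate lay below every WT plate, against 11% of all genes, and in 0 members above (4.75%). A 0 in double mutant replicate 3 counts as below here, for members as for all genes, and so does a low value from a few UMIs. The limit of 25.7 CPM in that plate is above the WT values of some of the 23, such as Zbp1 and Ifit3. Without the session term 37 of 39 were below zero, Eif2ak2 and Slfn8 being above. The plate sums cannot separate fewer cells of a type from less RNA per cell.

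This count rested heavily on single plates. Without the library labelled double mutant replicate 4, 2 members were called lower (0.0823% of all genes were), the median was -1.02 and 36 of 39 stayed below zero, the exceptions being Bst2, Eif2ak2 and Slfn8. The 2 were Ifi44 (-3.06, adjusted p = 0.0199, edgeR) and Trim30d (-2.01, adjusted p = 0.0213). The other 17 lost their call, with fold changes from -3.41 (Ifit3) to -0.83 (Irf9) and adjusted p from 0.0803 to 0.269. Among these, Ifit1 was at -2.60 (adjusted p = 0.0803), Xaf1 at -1.59 (adjusted p = 0.0803), Ddx58 at -1.39 (adjusted p = 0.162) and Rtp4 at -1.77 (adjusted p = 0.204). Each fall described below for another member than Ifi44 and Trim30d is thus a call that is lost without the library labelled replicate 4. Without double mutant replicate 3, 31 members were called lower (8.44% of all genes), with a median of -1.73. Herc6 (-1.05), Oas3 (-1.28) and Ifit2 (-0.71) passed there (adjusted p = 0.0171, 0.0159 and 0.0423, edgeR) and not with all plates. Leaving out double mutant replicate 2 left 6 calls among members and 33 among 12199 genes, and leaving out WT replicate 2 left 11 and 62 (of 12118 genes). Without Rev1 knockout replicate 1 the calls were 31 and 935 (of 12169 genes). Session 2 held only that plate and double mutant replicate 3, and no WT plate. In that fit the session term takes up double mutant replicate 3, so it resembles the fit without that replicate. Within sort session 3, whose 1 double mutant plate is the library labelled replicate 4, 34 members were called lower (5.69% of all genes) with a median of -2.44. Within session 1, with 1 WT plate assumed to vary like the others, 0 were called and the median was -1.21, with 37 of 39 below zero. With flow cell in place of session 0 members and 0 genes in all were called, and the median was -1.34.

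**Figure D2:**
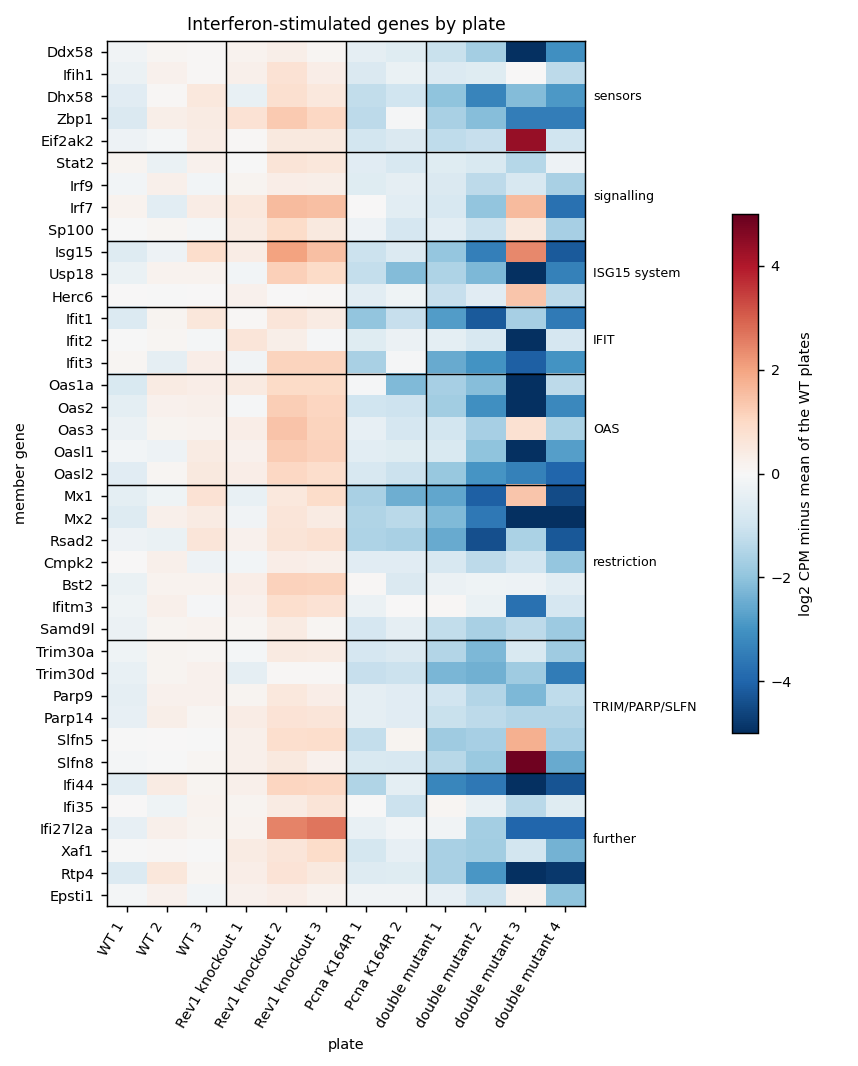
Heatmap of log2 CPM minus the mean of the 3 WT plates, with members in rows by role and plates in columns. The colour scale stops at -5 and 5. The double mutant columns are mostly blue, apart from dark red Eif2ak2 and Slfn8 in replicate 3, and the columns of Rev1 knockout replicates 2 and 3 are mostly red.

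Values below are CPM in the order of the replicate numbers of each genotype, with the library labelled double mutant replicate 4 last. The cytosolic sensors of foreign RNA are described first. Ddx58 encodes RIG-I, a sensor of viral RNA ends, and stood at 50.1, 59.98 and 59.2 CPM in WT, 63.5, 69.8 and 60.4 in Rev1 knockout, 41.3 and 37.2 in Pcna K164R and 25.7, 17.3, 0 and 6.49 in the double mutant. The double mutant plates all lay below the others. Its log2 fold change against WT was -2.02 (SE 0.37, adjusted p = 0.0187, edgeR), and it is at chr4:40203773-40239828 (GRCm38, minus strand). Dhx58, a relative of RIG-I, also fell, by 2.41 (adjusted p = 0.0106). Ifih1, which encodes the long-RNA sensor MDA5, was at -0.76 and Zbp1, a sensor of Z-form nucleic acid, at -2.31, neither past the threshold.

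Eif2ak2 encodes PKR, the kinase that stops translation when it binds double-stranded RNA. It was at 68.4, 76.2 and 105 CPM in WT, 84.02, 115 and 114 in Rev1 knockout, 42.6 and 49.9 in Pcna K164R and 33.8, 36.5, 1701 and 40.6 in the double mutant. Double mutant replicate 3 stood far above every other plate, with 196 UMIs of Eif2ak2 spread over 56 of its 82 wells. The other double mutant plates lay below all WT plates. Without that plate the fold change was -1.04 (SE 0.17, adjusted p = 0.00561, edgeR), and with it -0.22 (adjusted p = 0.928). Without the library labelled replicate 4 it was 0.59 (adjusted p = 0.860).

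Among the signalling factors, Irf9, the DNA-binding subunit of ISGF3, was at 82.99, 107 and 82.8 CPM in WT, 98.2, 114 and 109 in Rev1 knockout, 58.6 and 65.3 in Pcna K164R and 54.5, 36.7, 52.1 and 28.8 in the double mutant. The double mutant lay below WT in every plate, in replicate 3 on only 6 UMIs, and the fold change was -1.19 (SE 0.24, adjusted p = 0.0240, edgeR). Irf7, which amplifies interferon production, was at 29.4, 18.1 and 33.8 CPM in WT, 38.4, 80.1 and 75.7 in Rev1 knockout, 26.4 and 17.9 in Pcna K164R and 14.7, 6.45, 78.1 and 1.62 in the double mutant. Its double mutant plates spanned the WT range because replicate 3 was high, and it did not pass the threshold (-1.57, adjusted p = 0.201). Without replicate 3 it did, at -2.05 (adjusted p = 0.0189), and without the library labelled replicate 4 it was at -0.82 (adjusted p = 0.683). Stat2, the partner of Irf9, was at -0.55 and Sp100, a nuclear body protein, at -1.02, and neither passed.

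Isg15 encodes a ubiquitin-like protein that is joined to other proteins, and lies at chr4:156199424-156200818 (minus strand), with the 3 overlapping ISRE matches shown above. It was at 13.4, 17.8 and 39.2 CPM in WT, 27.2, 86.8 and 60.7 in Rev1 knockout, 9.97 and 13.1 in Pcna K164R and 5.32, 1.66, 113 and 0.811 in the double mutant. It was low in double mutant replicates 1 and 2 and the library labelled replicate 4, and high in replicate 3. The fold change of -1.71 did not pass (adjusted p = 0.303, edgeR), without replicate 3 it was -2.61 (adjusted p = 0.0166), and without the library labelled replicate 4 it was -0.73 (adjusted p = 0.815). Usp18, which removes ISG15 from proteins and damps the receptor, fell by 2.25 (adjusted p = 0.0231). Herc6, the mouse ISG15 ligase, was at 23.2, 22.5 and 22.9 CPM in WT, 26.7, 22.9 and 23.9 in Rev1 knockout, 15.7 and 19.8 in Pcna K164R and 10.2, 15.2, 60.8 and 8.92 in the double mutant and did not pass (-0.82).

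IFIT proteins bind foreign RNA and block its translation. Ifit1, at chr19:34640871-34650009 (plus strand), was at 34.1, 61.9 and 82.04 CPM in WT, 57.7, 84.3 and 74.6 in Rev1 knockout, 13.98 and 25.2 in Pcna K164R and 7.71, 2.704, 17.4 and 4.46 in the double mutant. Every mutant Pcna plate, single or double, lay below every WT plate, but double mutant replicate 3 on only 2 UMIs, so its rank is uncertain. Ifit1 fell by 3.07 in the double mutant (SE 0.42, adjusted p = 0.0070, edgeR) and Ifit3 by 3.47 (adjusted p = 0.0135). Ifit2 was at 23.6, 26.2 and 22.9 CPM in WT, 37.1, 29.7 and 23.3 in Rev1 knockout, 15.6 and 19.6 in Pcna K164R and 17.2, 13.7, 0 and 13.4 in the double mutant, with a fold change of -0.82 that did not pass. The 3 genes lie close together on chromosome 19.

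OAS enzymes make the messenger that activates RNase L, while the OAS-like proteins act in part without that activity. Oas2 was at 20.9, 34.4 and 35.2 CPM in WT, 28.3, 68.8 and 61.7 in Rev1 knockout, 14.7 and 14.2 in Pcna K164R and 8.51, 3.22, 0 and 2.84 in the double mutant. Oasl2 was at 63.6, 99.97 and 131 CPM in WT, 119, 193 and 174 in Rev1 knockout, 54.6 and 44.7 in Pcna K164R and 25.3, 11.9, 8.68 and 5.68 in the double mutant. Both fell in the double mutant, Oas2 by 2.42 and Oasl2 by 2.71 (adjusted p = 0.0126 for each, edgeR). Their double mutant plates lay below all others, except that the 0 of Oas2 in replicate 3, with its limit of 25.7 CPM, cannot be ranked. The Oasl2 value of that plate was 1 UMI. Oas3 was at 20.4, 27.5 and 28.7 CPM in WT, 31.9, 68.3 and 55.00 in Rev1 knockout, 18.96 and 13.9 in Pcna K164R and 13.02, 7.800, 43.4 and 8.11 in the double mutant and did not pass (-1.08). Oas1a and Oasl1 were at -1.47 and -1.78 and did not pass, Oasl1 with an adjusted p of 0.0515.

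Of the 7 genes grouped as restriction factors, which block steps of viral growth, 4 fell. Rsad2, the radical enzyme viperin, fell by 3.33 (adjusted p = 0.0102, edgeR), and Cmpk2, its neighbour on chromosome 12 that makes nucleotide substrates, by 1.39 (adjusted p = 0.0193). Mx2 and Samd9l fell by 3.14 and 1.48, and Mx1 was at -2.77 without passing (adjusted p = 0.0757). Ifitm3, a membrane protein that blocks virus entry, was at 309, 420 and 343 CPM in WT, 409, 634 and 582 in Rev1 knockout, 287 and 356 in Pcna K164R and 371, 283, 26.04 and 197 in the double mutant. Its plates overlapped between WT and the double mutant (-0.67, adjusted p = 0.289), and it was the most abundant member. Bst2, or tetherin, which holds budding virus on the cell surface, was at 48.7, 69.7 and 70.4 CPM in WT, 78.4, 140 and 134 in Rev1 knockout, 64.9 and 37.9 in Pcna K164R and 50.2, 53.6, 52.1 and 43.4 in the double mutant. It differed least, at -0.22 (adjusted p = 0.669), although its promoter holds a run of ISRE matches.

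The TRIM, PARP and SLFN members had 4 of 6 called lower. Trim30d, at chr7:104470014-104507849 (minus strand), was at 23.98, 33.7 and 36.3 CPM in WT, 22.5, 31.96 and 32.03 in Rev1 knockout, 13.7 and 14.4 in Pcna K164R and 6.11, 5.51, 8.68 and 2.43 in the double mutant. Trim30a, its neighbour and paralogue, a brake on inflammatory signalling, was at 101, 130 and 127 CPM in WT, 111, 164.4 and 157 in Rev1 knockout, 65.8 and 71.99 in Pcna K164R and 42.3, 24.9, 69.4 and 34.1 in the double mutant. They fell by 2.57 (SE 0.33, adjusted p = 0.00455, edgeR) and 1.62 (adjusted p = 0.0106), and all double mutant plates lay below WT for both. In replicate 3 these values rest on 1 UMI of Trim30d and 8 of Trim30a, so the rank of that plate is uncertain. How reads shared by these near copies were counted is not given in the sources used here, so their separate values are uncertain. Parp14, an ADP-ribosyltransferase, was at 36.8, 60.3 and 52.6 CPM in WT, 62.9, 78.02 and 75.2 in Rev1 knockout, 35.7 and 33.3 in Pcna K164R and 22.5, 19.4, 17.4 and 17.4 in the double mutant and fell by 1.20 (adjusted p = 0.0173). Parp9, a partner of interferon signalling beside it on chromosome 16, fell by 1.13 (adjusted p = 0.0253).

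Slfn8, of the Schlafen family, was at 56.2, 59.05 and 63.2 CPM in WT, 70.7, 83.3 and 69.1 in Rev1 knockout, 34.9 and 34.1 in Pcna K164R and 22.5, 16.3, 1719 and 10.1 in the double mutant. Double mutant replicate 3 stood apart with 198 UMIs in 52 wells, while the other double mutant plates lay below all WT plates. The fold change was -0.84 with that plate (adjusted p = 0.680, edgeR) and -1.92 without it (SE 0.24, adjusted p = 0.00269), against 0.19 (adjusted p = 0.979) without the library labelled replicate 4. Slfn5, at -1.32, did not pass.

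The remaining members include the strongest fall of the list. Ifi44, at chr3:151730922-151749960 (minus strand), encodes an interferon-induced protein and was at 21.3, 41.2 and 33.8 CPM in WT, 37.2, 66.5 and 63.9 in Rev1 knockout, 10.7 and 21.9 in Pcna K164R and 2.92, 2.29, 0 and 1.22 in the double mutant. Double mutant replicates 1 and 2 and the library labelled replicate 4 lay below every plate of the other genotypes. The 0 of replicate 3, with its limit of 25.7 CPM, cannot be ranked against values under that limit. The fold change was -3.51 (SE 0.39, adjusted p = 0.00218, edgeR). Xaf1, a pro-apoptotic factor, was at 32.5, 34.4 and 32.7 CPM in WT, 44.2, 50.7 and 63.7 in Rev1 knockout, 17.99 and 24.6 in Pcna K164R and 10.5, 9.78, 17.4 and 6.08 in the double mutant and fell by 1.90 (SE 0.26, adjusted p = 0.00708). Rtp4 was at 79.04, 186 and 135 CPM in WT, 158, 200 and 176 in Rev1 knockout, 81.1 and 82.97 in Pcna K164R and 40.3, 16.2, 0 and 4.06 in the double mutant and fell by 2.94 (adjusted p = 0.0305). Epsti1 was at 77.99, 98.1 and 75.9 CPM in WT, 96.8, 105 and 94.4 in Rev1 knockout, 73.5 and 73.3 in Pcna K164R and 62.8, 39.4, 95.5 and 20.3 in the double mutant, where double mutant replicate 3 lay within the WT range, and did not pass (-1.06, adjusted p = 0.102). Epsti1 was at -1.23 (adjusted p = 0.0244) without replicate 3 and at -0.45 (adjusted p = 0.605) without the library labelled replicate 4. Ifi35 and Ifi27l2a were at -0.38 and -1.31.

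Members with and without ISRE letters had medians close to each other in the double mutant. The 16 with a match had a median of -1.40 and 6 calls, and the 13 without one had a median of -1.39 and 6 calls. Ifi44 had no match in its window, and Bst2 had several.

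Loss of Rev1 alone went the other way without passing the threshold. Against WT 0 of 39 members were called, as were 0% of all genes, while 36 members were above zero, with a median of 0.57 against 0.01 over all genes. At an unadjusted p under 0.05 there were 12 members and 1116 of all 12221 genes, the members led by Ifi27l2a (2.80, SE 0.64), Bst2 (1.02, SE 0.26), Oasl1 (1.35) and Xaf1 (0.81), with adjusted p of 0.304 and above. In 12 members every knockout plate lay above every WT plate, against 6.1% of all genes. Replicate 1, sorted in session 2, was nearer WT than replicates 2 and 3 of session 3 for Irf7, Isg15, Oas2, Oas3, Bst2 and Ifi44.

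Pcna K164R alone had 0 of 39 members called against WT (0% of all genes), but 39 of 39 were below zero, with a median of -0.63 and a range from -1.73 (Usp18) to -0.11. At an unadjusted p under 0.05 there were 6 (239 of all 12221 genes), among them Usp18, Trim30d (-1.12), Rsad2 (-1.55) and Xaf1 (-0.76). In 28 members both Pcna K164R plates lay below all WT plates, against 11.9% of all genes. Both Pcna K164R plates were sorted in session 1, but WT replicates 2 and 3 in session 3, so this ranking also spans sessions. In session 1 alone, against its 1 WT plate, the median was -0.41 and 33 of 39 were below zero.

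The comparisons of the genotypes share plates with those above, so they are not separate evidence. Against Rev1 knockout the double mutant had 22 of 39 members lower (1.09% of all genes), with a median of -2.16. Ifi44 was at -4.45 (SE 0.47, adjusted p = 0.00368, edgeR), Xaf1 at -2.70 (SE 0.32, adjusted p = 0.00434), and Oas2 at -3.52 and Parp14 at -1.77 (adjusted p = 0.0140 for each). Without the library labelled double mutant replicate 4, 1 member was called (0.0165% of genes), and without Rev1 knockout replicate 2, 2 were (5 of 12166 genes). Against Pcna K164R 1 member was lower, Ifi44 at -2.81 (adjusted p = 0.0452, edgeR), where 0.0409% of all genes were. The median was -0.89 with 37 of 39 below zero. Ifi44 lost this call without the library labelled double mutant replicate 4 and with no session term. It also lost it without double mutant replicate 1 or 2, or without any single WT plate.

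The interaction term asks whether the double mutant departs from the sum of both single mutants on the log2 scale. Of 39 members 0 were called (edgeR, 0% of all genes), 27 had an unadjusted p under 0.05 (640 of all 12221 genes), and DESeq2 called 5 lower (25 of 12221 genes). The estimates were below zero in 38 members, with a median of -1.51. In wells with stem cell markers alone, an alternative added after seeing the data, 8 were called lower (0.176% of genes). Double mutant plates held only 5 to 23 such wells each. The interaction was not fitted in these wells without the library labelled double mutant replicate 4.

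**Figure D3:**
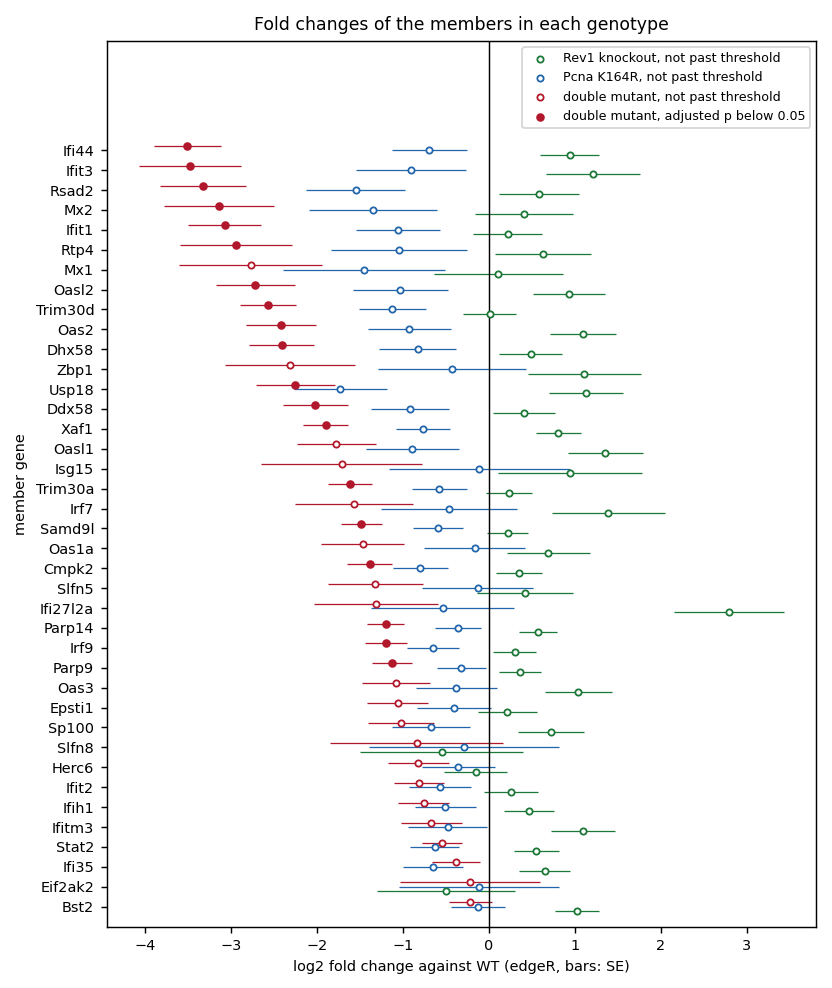
Log2 fold change against WT (x axis, edgeR, bars are SE) for each member (rows, ordered by the double mutant value) in Rev1 knockout (green), Pcna K164R (blue) and the double mutant (red). Filled points are past an adjusted p of 0.05, 19 in all and each in the double mutant. The blue points lie at or left of -0.11 and 36 of the 39 green points lie right of zero.

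The rest of the pathway was read from lists fixed by role. None of the 7 interferon genes listed had a UMI in the kept wells, so the ligands were not measured. Of 5 receptor genes 0 were called in the double mutant against WT, where 2.41% of all genes were called lower and 1.8% higher. Ifnar1 was at -0.19 (adjusted p = 0.935, edgeR) and Ifnar2 at -0.53 (adjusted p = 0.216). Double mutant replicate 3 decided the value of Ifnar1, which was at -0.94 (adjusted p = 0.00710, edgeR) without it and at 0.51 (adjusted p = 0.877) without the library labelled replicate 4. Ifnar2 was at -0.41 (adjusted p = 0.0871) and -0.52 (adjusted p = 0.598) in these fits. Among the transcription factors Irf2, which competes with Irf1 for shared sites, fell by 1.23 (adjusted p = 0.0106), while Irf1 was at -0.87 (adjusted p = 0.0558). Irf1 passed without double mutant replicate 3 (-0.88, adjusted p = 0.0243) and was at -0.50 (adjusted p = 0.462) without the library labelled replicate 4.

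Of 13 sensing and adaptor genes 4 fell, namely Ikbke (-1.23), Samhd1 (-0.76), Tlr7 (-1.92) and Trim25 (-0.69). Of 6 brakes on the pathway 0 were called. Of 11 GTPases induced mainly by interferon gamma 5 fell, namely Gbp7 (-1.12), Gbp8 (-2.11), Gbp9 (-3.95), Igtp (-1.42) and Irgm2 (-1.68), and the list's median was -1.68. Irf2 and these 9 genes kept their call without double mutant replicate 3, and each lost it without the library labelled replicate 4 (adjusted p from 0.119 to 0.379). Of 14 MHC class I genes 0 were called, and their median was -0.43. Beside these counts, 2.41% of all genes were called lower and 1.8% higher. In lists this short, 0 calls do not set a list apart from all genes.

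Shares of expressing wells were separated from the level in those wells by thinning each well to a fixed number of UMIs. At 1000 UMIs per well, the wells with any member UMI made up 79.3%, 85.9% and 88.3% in WT, 82.9%, 93.0% and 93.4% in Rev1 knockout, and 70.1% and 69.6% in Pcna K164R. They made up 61.6%, 53.4%, 85.4% and 46.7% in the double mutant, where replicate 3 stood out. Without Eif2ak2 and Slfn8 the double mutant shares were 59.7%, 49.6%, 40.2% and 41.1%, and those of WT 77.2%, 82.0% and 85.4%. The mean with all members was 61.8% ± 16.9 (SD, n = 4) in the double mutant and 84.5% ± 4.68 (SD, n = 3) in WT.

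Wells with a member UMI held 1.89 ± 0.388 of them in the double mutant (SD, n = 4), 2.78 ± 0.354 in WT, 3.72 ± 0.7003 in Rev1 knockout (n = 3 for each) and 2.26 ± 0.0543 in Pcna K164R (n = 2). By single member, every double mutant plate had a lower share of expressing wells than every WT plate in 21 of 39 members, against 8.2% of all genes, and a higher one in 0 (1.17%). A share of 0 in double mutant replicate 3 counts as lower here, although 3 UMIs would be 3.66% of its wells. Pcna K164R was below WT in this way for 16 members (8.07% of genes), and Rev1 knockout above it for 7 (4.36% of genes). Ifi44 was seen in 3.94%, 4.92% and 5.26% of WT wells and in no well of the double mutant plates. At this depth that limits wells with a captured UMI, not expressing cells, and at 10000 UMIs the double mutant share was 2.96% on average.

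**Figure D4:**
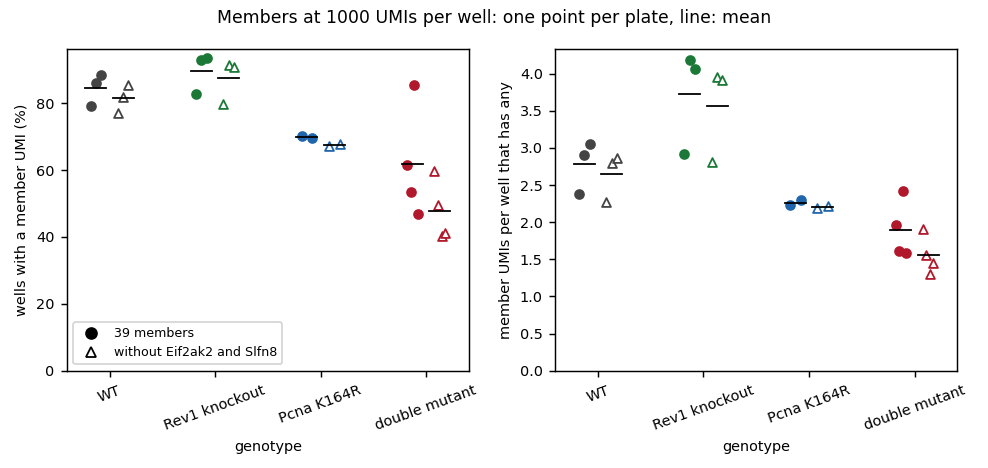
Wells with a member UMI (left, percent) and member UMIs per well that has any (right), both at 1000 UMIs per well, with 1 point per plate and a line at the mean of each genotype. Filled circles use the 39 members and open triangles leave out Eif2ak2 and Slfn8. The high double mutant circle at 85.4% is replicate 3, and its triangle is at 40.2%.

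At that depth a positive well rarely holds more than 1 UMI of a single gene, so the level in positive wells sits near its floor of 1 and the split favours the share by construction. The split was repeated at 10000 UMIs per well, a depth added after seeing the data, at which double mutant replicate 3 gave no value. Only wells that reached this depth were used, so they are not the same wells as at the shallower depth. WT replicates 1 to 3 kept 278 of 381, 112 of 305 and 103 of 171 wells. Double mutant replicates 1 and 2 kept 311 of 357 and 229 of 268 wells. The library labelled replicate 4 kept 77 of 107. The effect of this unequal loss on the comparison was not tested. The members then summed to 17.9, 23.5 and 26.4 UMIs per well in WT, 24.6, 37.9 and 36.8 in Rev1 knockout, 15.5 and 15.2 in Pcna K164R, and 11.3, 8.76 and 7.44 in the double mutant, the last from the library labelled replicate 4. All double mutant and Pcna K164R plates lay below all WT plates. Nearly every well held a member UMI, 100% in WT and in Rev1 knockout and 94.8% to 98.7% in the double mutant.

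For single members the floor still mattered at this depth, since 33 of 39 held fewer than 2 UMIs per positive WT well (1.14 at the lowest, 4.83 at the highest). The median log2 ratio of the double mutant to WT was -1.82 for the level, -1.52 for the share of wells and -0.28 for the level in positive wells. The size of the share beside that of the level in positive wells therefore remains in large part a matter of depth. Without the library labelled replicate 4 the medians were -1.55, -1.18 and -0.27. The share was lower in 39 of 39 members and the level in positive wells in 38 (36 without that plate). Ifi44 was in 20.1% of WT wells and 2.96% of double mutant wells on average, with 1.54 and 1.18 UMIs per positive well. Rtp4 went from 54.9% to 16.6% of wells and from 2.78 to 1.48 UMIs. Ifit1 went from 32.2% to 4.82% and from 2.37 to 1.43 UMIs. Ifitm3 was in 87.3% and 70.0% of wells with 4.83 and 4.80 UMIs, so its level in positive wells was nearly level between the genotypes. For Pcna K164R the medians were -0.59 in level, -0.43 in share and -0.16 in positive wells, and for Rev1 knockout 0.50, 0.43 and 0.07.

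To ask which progenitor wells carried the members, each well was placed in a class when at least 2 of its 1000 UMIs came from a marker list (stem, lymphoid, erythroid, granulocyte-monocyte, megakaryocyte or mitotic). These classes are ranges of a marker sum that may overlap, not cell types. Wells with stem markers held more member UMIs than the other wells of the same plate in 10 of 11 plates, and wells with lymphoid markers in 8 of 9. Wells with mitotic markers, genes of dividing cells, held more in 0 of 12 plates. Erythroid marker wells held more in 3 of 12 plates, granulocyte-monocyte wells in 5 of 10 and megakaryocyte wells in 5 of 8.

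**Figure D5:**
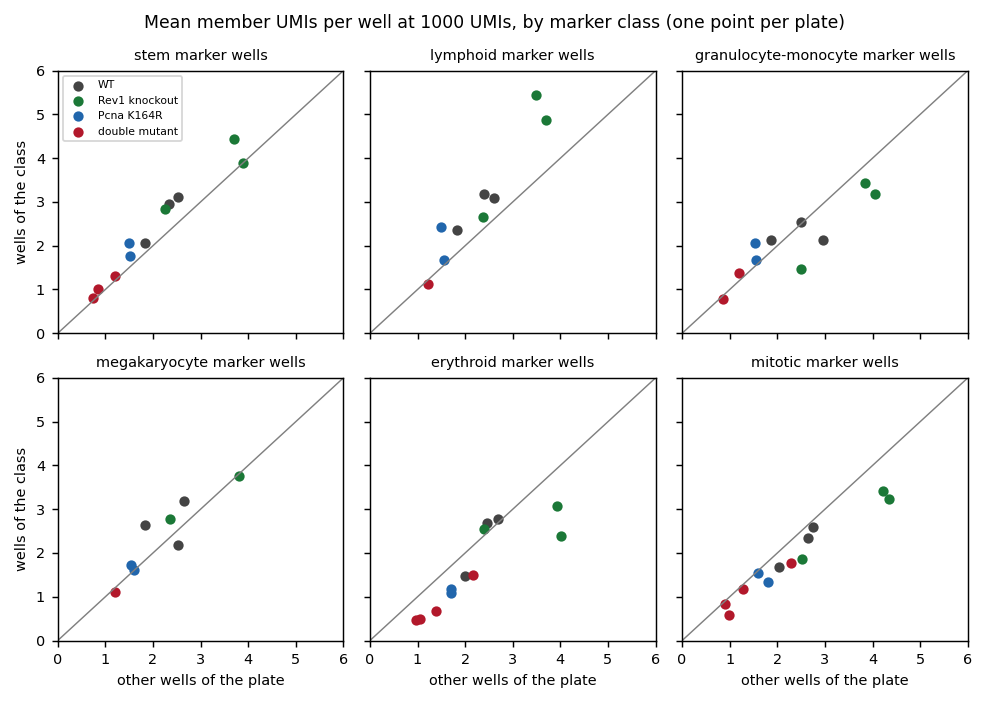
Mean member UMIs per well at 1000 UMIs in the wells of a marker class (y axis) against the other wells of the same plate (x axis), 1 point per plate, coloured by genotype. The grey line marks equal values. Stem and lymphoid points lie mostly above it, and all 12 mitotic points lie below it.

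Stem marker wells averaged 2.06 to 3.10 member UMIs over the WT plates, 2.84 to 4.43 in Rev1 knockout, 1.76 to 2.07 in Pcna K164R and 0.8 to 1.32 in the 3 double mutant plates with enough such wells. These double mutant plates lay below the WT plates within this class, but on few wells. They had 19 and 23 in replicates 1 and 2 and 10 in the library labelled replicate 4, against 88, 78 and 49 in WT. Erythroid marker wells averaged 1.47 to 2.78 in WT and 0.48 to 1.5 in the double mutant, and the ranges overlapped slightly. Mitotic marker wells averaged 1.69 to 2.59 in WT and 0.578 to 1.78 in the double mutant, also with some overlap. The highest class averages were those of lymphoid marker wells in Rev1 knockout, 2.66 to 5.44, against 2.35 to 3.17 in WT.

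Thinning left few members above the low-count filter for tests of single genes with plate as a block. Of 3 members tested in stem marker wells 1 was higher (3.74% of genes), and of 5 in lymphoid wells 1 was higher (1.54%). In erythroid wells 1 of 1 was lower (9.15%), and in mitotic wells 1 of 5 (2.28%). In granulocyte-monocyte wells 0 of 2 were called (1.34% of genes higher, 0.353% lower), and in megakaryocyte wells 0 of 4 (0% and 0.123%, edgeR). The fits were therefore repeated on unthinned counts, a choice made after seeing this. There 18 of 36 members were higher in stem marker wells than in the other wells, against 17.2% of all genes, and 0 were lower (18.6%). In lymphoid marker wells 23 of 38 were higher (10.2% of genes) and 0 lower (9.94%). In mitotic marker wells 15 of 37 were lower (10.8% of genes) and 0 higher (10.8%). In erythroid marker wells 20 of 38 were lower (29.4% of genes) and 2 higher (24.5%). Granulocyte-monocyte wells had 1 of 37 higher (6.96%) and 3 lower (4.31%), and megakaryocyte wells 1 of 36 higher (2.11%) and 0 lower (2.54%).

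Examples from the unthinned fits follow, and differences between classes were not tested. In stem marker wells Ifi44 was higher by 0.97, Trim30d by 0.76, Ifitm3 by 0.64 and Trim30a by 0.57 on the log2 scale. In lymphoid marker wells Ifi27l2a (1.54), Mx1 (1.10), Sp100 (1.01), Oas2 (0.90), Rtp4 (0.66) and Trim30a (0.46) were higher, and Oas2 (0.49) and Rtp4 (0.27) were also higher in stem marker wells. In erythroid marker wells Ifitm3 (-1.14), Sp100 (-0.98) and Epsti1 (-0.92) were lower, while Cmpk2 (0.61) and Ifit3 (0.67) were higher. In mitotic marker wells Slfn5 (-1.14), Ifi44 (-0.92) and Ifit1 (-0.66) were lower. Each of these named values passed an adjusted p of 0.05 in its unthinned fit (edgeR).

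At 1000 UMIs, 349 of 3088 wells held at least 5 member UMIs, with the plates contributing unequally. In the 8 plates with at least 10 such wells, each class was set beside its share of all wells of the same plate. Lymphoid and stem marker wells took a larger share of the high wells in 6 plates each. Megakaryocyte marker wells did so in 5, granulocyte-monocyte in 4, erythroid in 3 and mitotic marker wells in 1. In 24 wells there were 10 or more, and these lay in WT replicates 2 and 3 (1 and 4 wells), Rev1 knockout replicates 1 to 3 (2, 4 and 10) and Pcna K164R replicate 2 (3). The double mutant had 0. The top well, in WT replicate 3, held 22 UMIs of 18 different members. The next, in Rev1 knockout replicate 1, held 20 UMIs of 15 members, so both carried the set broadly and not 1 gene. The fewest members in any of the 24 was 6, as in a well of Pcna K164R replicate 2 with 5 of 12 UMIs from Ifit1.

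The makeup of the plates moved with genotype. Stem marker wells were 23.1% to 28.7% of WT wells and 5.32% to 9.35% of double mutant wells, lymphoid marker wells 12.6% to 19.9% and 0% to 4.20%, and mitotic marker wells 32.7% to 45.2% and 43.9% to 64.6%. In stem marker wells alone, unthinned, 14 of 36 members were lower in the double mutant than in WT (1.7% of genes), with a median of -1.47. Stem marker wells numbered only 5 to 23 per double mutant plate, against 49 to 88 per WT plate. In wells outside the mitotic class 20 of 39 were lower (2.4%), with a median of -1.37. Without erythroid marker wells 18 were lower (0.797%). The medians were close to that of all wells, and the counts again rested on 1 plate. Without the library labelled double mutant replicate 4 as well, 7 of 37 members were lower in stem marker wells (61 of 8679 genes, median -1.18), 1 outside the mitotic class (10 of 11247 genes, median -1.02) and 2 without erythroid marker wells (10 of 11880 genes, median -1.15).

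Markers of other cells were also read. The 8 dendritic cell markers summed to 285 to 375 CPM in WT and 116 to 221 CPM in the double mutant, mostly from Tcf4, which fell (-1.02, adjusted p = 0.0297, edgeR), with Irf8 at -1.34 (adjusted p = 0.0520). Without the library labelled double mutant replicate 4 they were at -0.83 and -0.85 (adjusted p = 0.269 and 0.410). The 9 macrophage markers found summed to 35.5 to 454 CPM in WT and 125 to 223 CPM in the double mutant. Endothelial markers summed to 34.1 to 44.1 and 20.4 to 28.2 CPM. The remaining lists overlapped between WT and the double mutant. B cell markers summed to 48.2 to 66.5 and 16.2 to 193 CPM, and neutrophil markers to 4.41 to 2727 and 14.3 to 262. Mast cell and basophil markers summed to 11.1 to 319 and 4.70 to 201 CPM. T and natural killer cell markers were at 19.3 to 160 and 42.4 to 150 CPM, and hepatocyte markers at 7.85 to 18.4 and 4.99 to 14.1. Their part in the member values was not tested.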

How the data were processed

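SORT-seq, a plate method that reads the 3' end of each transcript with a well barcode and a UMI, was run on 12 plates of 384 wells per the labels' protocols. The submitters' processing notes name BWA 0.7.15 and GRCm38 (mm10); what counted the reads, and on which annotation, is not given in the sources used here. The authors deposited whole-number counts of UMIs per gene and well, read counts, and transcript counts. The deposited transcript counts are expected counts corrected for repeated UMIs, which matched the collision formula for 4096 barcodes to within 0.005 in every plate. The observed UMI counts were analysed and the transcript counts, rounded after summing, were an alternative.

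Wells whose UMIs outside spike-in rows reached 1000 were kept, 3088 of 4608, and summed per plate, so that the plate was the replicate (3, 3, 2 and 4 per genotype). Kept depth ran from 212938 to 11617420 UMIs per plate, so 3 UMIs, the limit behind a count of 0, were 25.7 CPM in the thinnest. Limits cover counting error only. No pair of plates of a genotype was near-identical (chi-square per degree of freedom at least 8.11). No doublet caller was run on these sorted wells. edgeR 4.0.16 in R 4.3.3 fitted genotype and sort session over all plates after TMM and its default low-count filter (12221 genes), with its quasi-likelihood test and Benjamini-Hochberg adjustment at 0.05. The script was tested on simulated data first. DESeq2 1.42.0 was an alternative. CPM are TMM-scaled, and changes are in log2 units. Wells were thinned at random to 1000, 3000 or 10000 UMIs for shares. Well class fits had plate as a block and needed 10 wells on either side. Promoters were from RefSeq and gene positions from GENCODE, both on GRCm38.

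Genes with values in every plate are the 2 members with most UMIs in each of 8 role groups and the 4 members with the smallest p past the threshold in each comparison. Other members are given by count, range and log2 fold change, and of the pathway lists Irf1, Ifnar1, Ifnar2 and the genes past the threshold in the double mutant. 1 further result of those lists is not reported here. The members and lists were chosen with earlier results of these data known, so no p is given for the list as a whole. Unthinned class fits, the stem wells unthinned, wells outside the mitotic class, shares without Eif2ak2 and Slfn8 or without Ifitm3, the 10000 UMI depth, and 3 well selections without the library labelled double mutant replicate 4 were added after seeing the data.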

Additional observations from a re-analysis of the deposited data

Results flagged for a closer look

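In the 4 double mutant plates, 7 of 42 series of values had 1 plate far from the other 3 by Dixon's test at the 95% level, which chance alone gives in about 1 of 20 groups. In all 7 the plate was double mutant replicate 3, the thinnest, and the value was high. Eif2ak2 was at 1701 CPM there against 33.8 to 40.6 CPM in the other double mutant plates, and Slfn8 at 1719 CPM against 10.1 to 22.5. Isg15 was at 113 CPM against 0.811 to 5.32, and Slfn5 at 69.4 CPM against 5.58 to 6.08. Herc6 was at 60.8 CPM against 8.92 to 15.2, Oas3 at 43.4 CPM against 7.80 to 13, and Mx1 at 43.4 CPM against 0.406 to 2.39. The 2 largest rest on 196 and 198 UMIs, and 43.4 CPM in that plate is a few UMIs, near its limit of 25.7 CPM for 3 UMIs. Ifnar1, the receptor gene, was also far higher in that plate, at 1623 CPM.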

How the results depend on the processing

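No paired analysis was possible because the replicate numbers follow the order of deposit and pair no plates. Leaving out 1 plate at a time gave 2 to 31 members lower in the double mutant against WT (median -1.82 to -1.02), 1 to 36 against Rev1 knockout (-2.54 to -1.64), 0 to 1 against Pcna K164R (-1.24 to -0.77) and 0 to 1 for the interaction (-1.90 to -1.24). It gave 0 called for either single mutant against WT, with medians of 0.40 to 0.73 for Rev1 knockout and -1.16 to -0.41 for Pcna K164R. The counts of members higher were 0 in all of these. Called members in well classes were 1 to 2 (stem), 1 to 1 (erythroid), 0 to 1 (lymphoid), 0 to 0 (granulocyte-monocyte and megakaryocyte) and 1 to 1 (mitotic). The share of wells with a member UMI differed from WT by -30.6 to -17.7 points in the double mutant, 2.65 to 7.17 in Rev1 knockout and -17.3 to -12.7 in Pcna K164R, and the UMIs per positive well by -1.09 to -0.75, 0.74 to 1.08 and -0.72 to -0.38.

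Members lower in the double mutant against WT numbered 0 with flow cell in place of session, 0 in session 1, 34 in session 3 (median -2.44), 7 with wells thinned (median -1.11, fewer genes tested), 1 in thinned stem marker wells (median -3.46, 4 members tested) and 6 without double mutant replicate 3 and the library labelled replicate 4. Without the latter they were 7 in unthinned stem wells, 1 outside the mitotic class (median -1.02) and 2 without erythroid wells. Against Rev1 knockout they numbered 35 with no low-count filter, 8 with flow cell, 37 in session 3 (median -2.92), 10 thinned, 2 in thinned stem wells (median -3.72) and 2 without both plates. Against Pcna K164R they numbered 4 with DESeq2, 15 with no filter, and 0 with transcript counts, no session term, flow cell, session 1, thinning or without both plates, with a stem well median of -3.03. For the interaction they numbered 5 with DESeq2, 22 with no filter and 8 in unthinned stem wells (0.176% of genes). They numbered 1 with thinning, with wells of at least 3000 UMIs, without erythroid wells or outside the mitotic class. The interaction medians were -1.12 (flow cell) and -3.61 (thinned stem wells). The other counts in this paragraph stand without the share of all genes called. That share can move with the setting, so these counts do not speak of the members alone. With no filter 8 members were higher in Rev1 knockout and 1 lower in Pcna K164R, and session 3 gave 1 higher in Rev1 knockout.

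Class calls on unthinned counts were 18 (stem), 22 (erythroid), 23 (lymphoid), 4 (granulocyte-monocyte), 1 (megakaryocyte) and 15 (mitotic). The next fits used thinned counts and cannot be set beside these. In WT plates alone 0 members were called for stem, erythroid, lymphoid and mitotic wells, of 6, 6, 6 and 12 tested. At least 1 marker UMI gave 2 for stem wells, and at least 3 gave 0 for stem, lymphoid and mitotic wells. The share difference of the double mutant was -10.7 points at 3000 UMIs, -2.89 at 10000, -4.50 unthinned and -33.8 without Eif2ak2 and Slfn8, and that of Pcna K164R -1.45 at 10000 and -0.189 unthinned, where nearly all wells hold a member UMI. UMIs per positive well, which grow with depth, differed by -3.08, -13.2 and -8.87 in the double mutant at 3000, 10000 and unthinned, by 2.89, 10.5 and 31.2 in Rev1 knockout, and by -2.22 and -7.02 in Pcna K164R at 3000 and 10000. At 3000 and 10000 UMIs only wells that reached the depth were used, so these settings do not cover the same wells.

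Single genes changed sign in the double mutant against WT as follows, and the cause was not tested. Ifitm3 was at 0.20 with flow cell, 0.087 in session 1 and 0.086 without double mutant replicate 3 and the library labelled replicate 4. Bst2 was at 0.10 in session 1, 0.14 without the library labelled double mutant replicate 4 (leaving out single plates gave -0.55 to 0.14), 0.095 without both plates and 0.25 in unthinned stem wells. Eif2ak2 and Slfn8 were at 2.20 and 2.61 with no session term, 0.51 and 0.45 thinned, 1.14 and 0.78 without WT replicate 1, and 0.59 and 0.19 without the library labelled replicate 4, and leaving out single plates gave -1.04 to 1.14 and -1.92 to 0.78. Without that library, wells outside the mitotic class gave 0.68 for Eif2ak2, 0.40 for Slfn8, 0.074 for Bst2 and 0.0090 for Isg15, wells without erythroid markers 0.495, 0.27 and 0.18 for Eif2ak2, Slfn8 and Bst2, and unthinned stem wells 0.24 for Bst2 and 0.11 for Ifitm3. Depth limits double mutant replicate 3 most, since 3 UMIs in its 82 wells are 3.66% of wells.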
